A study of Mus musculus with 4 samples.

Results

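The 8 genes of lipid uptake and scavenging, Cd36, Msr1, Scarb1, Lpl, Apoe, Abca1, Lgals3 and Gpnmb, were examined for peaks of a STAT3 ChIP-seq experiment (chromatin immunoprecipitation with sequencing) in mouse spinal cord. The 8 genes, of 21887 protein-coding genes, were selected on a measured value: Cd36 holds a sham peak with 1 of the 5 highest scores on chromosomes 1 to 19, X and Y, and the other genes were placed beside it for their function. A peak was assigned to a gene when its centre lay inside the gene or within 50 kb of either end. By this rule the 8 genes had 61 of the 88765 sham peaks and 17 of the 36249 peaks found after spinal cord injury (SCI), where both lists and all ranks are limited to those chromosomes. The rule thus fixed the Cd36 sham score, which is given as a description only.

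Both groups were C57BL/6 mice, and tissue from the injury epicentre level was taken 7 days after surgery and dissociated to single cells. Sham mice had a laminectomy at thoracic level 9 and no contusion. SCI mice had a moderate contusion of 60 kdyn to the surgically exposed cord at the same level. Each condition is represented by 1 STAT3 library, made from pooled tissue of 3 mice, so no value here has a replicate, an error between animals or a test between conditions. The labels name no sort for a cell type, no sex and no age, and the 2 input libraries were not analysed here. A peak list holds no expression values, so the cell types in the suspension could not be checked by markers. Fewer cells with a bound site and less binding per cell cannot be told apart in such bulk material.

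Phagocytes that clear myelin and dead cells take up lipid through scavenger receptors, break it down in lysosomes, and pass cholesterol on to lipoproteins. In the injured cord this work falls to microglia and to macrophages that enter from the blood. STAT3 is a transcription factor that cytokines of the interleukin-6 family activate by phosphorylation, and it binds a palindromic DNA element with the core TTCNNNGAA. Among the 8 genes, Cd36, Msr1 and Scarb1 encode receptors, Lpl an extracellular lipase, Apoe a lipoprotein component and Abca1 a cholesterol exporter. Lgals3, encoding galectin-3, and Gpnmb, a transmembrane glycoprotein gene, are widely used marks of activated, lipid-laden phagocytes.

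No peak of either list lay over the 300 base promoter window of any of the 5 genes for which the RefSeq promoter table (build GRCm38.p6) has an entry. The 7 windows, from 250 bases before to 50 after a transcription start, belong to Cd36, Apoe (3 starts), Abca1, Lgals3 and Gpnmb. Msr1, Scarb1 and Lpl have no entry. Searched on both strands, none of the 7 windows held TTCNNNGAA or its stricter form TTCCNGGAA, which were present in 8.30 and 1.15% of all 32851 windows of the table. The 250 bases before the start are shown for Cd36, the gene of the highest peak, and for Apoe, whose start had an SCI peak nearest. Capitals mark the letters of the STAT palindrome's ends in their tight form, TTCC and GGAA, of which the Cd36 stretch held 6 and the Apoe stretch 4, with a median of 3 over the table. At least 1 such match was present in 93.4% of the upstream stretches, so a match here is only a description.
Cd36, GRCm38.p6 chr5:17835897-17836146, minus strand: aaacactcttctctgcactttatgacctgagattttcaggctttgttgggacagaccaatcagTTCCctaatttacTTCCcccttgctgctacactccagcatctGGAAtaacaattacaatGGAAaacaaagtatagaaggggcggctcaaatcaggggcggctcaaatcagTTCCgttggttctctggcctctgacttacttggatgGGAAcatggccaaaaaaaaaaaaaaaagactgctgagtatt
Apoe, GRCm38.p6 chr7:19699189-19699438, minus strand: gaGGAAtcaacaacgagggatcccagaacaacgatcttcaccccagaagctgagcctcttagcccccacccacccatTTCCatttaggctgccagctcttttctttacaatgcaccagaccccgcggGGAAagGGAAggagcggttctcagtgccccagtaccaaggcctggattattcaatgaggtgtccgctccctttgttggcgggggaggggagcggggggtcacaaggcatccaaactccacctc

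The SCI peak nearest to a listed start lay 942 bp upstream of the Apoe start printed above, and the nearest sham peak to that start was 2.90 kb upstream. Of the 5 genes in the promoter table, 1 had an SCI peak centre within 1 kb of a start and 0 had a sham peak there, while over all genes in the table the shares were 3.30% for SCI and 7.50% for sham. For Cd36 the nearest sham peak was 20.4 kb downstream of the listed start and the nearest SCI peak 113 kb upstream. At Gpnmb the nearest SCI peak was 6.68 kb and the nearest sham peak 12.7 kb downstream of the start. The nearest peaks to the starts of Abca1 and Lgals3 lay 45.9 kb (sham) and 46.6 kb (SCI), and 10.8 kb (sham) and 46.4 kb (SCI) away. Peaks at these genes were therefore mostly distant from the listed starts, with the Apoe SCI peak as the exception. Only listed starts were checked, and the Cd36 span reaches well upstream of its listed start.

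Every one of the 8 genes had a sham peak in its window, and all but Cd36 had an SCI peak. The shares over all protein-coding genes are close to this, with 95.6% for sham and 84.2% for SCI inside or within 50 kb. A peak inside the gene itself was present at 7 of the 8 genes in sham, all but Apoe, and at 4 in SCI, namely Scarb1, Apoe, Abca1 and Gpnmb. Over all protein-coding genes these shares were 51.0 and 33.4%, but the 8 genes have a median length of 45.2 kb against 17.2 kb over all, and the share with a peak rises with length. Protein-coding genes were therefore split into 10 groups of equal size by gene length. In the group of Cd36, Msr1 and Scarb1 the sham share was 92.4% and the SCI share 70.8%. These shares were 98.9 and 91.7% for the group of Abca1, 71.5 and 40.0% for Lpl, and 58.2 and 30.2% for Gpnmb. They were 46.6 and 23.3% for Lgals3, and 18.2 and 8.32% for Apoe. Over the summed windows of 1265 kb the sham density was 4.82 peaks per 100 kb, against 3.38 along the chromosomes, a ratio of 1.43. For SCI it was 1.34 against 1.37, a ratio of 0.984. The density along the chromosomes also covers sequence away from genes. Against the median count of its length group, the sham count was higher at Cd36, Scarb1, Apoe and Lgals3. It was lower at Msr1, Lpl, Abca1 and Gpnmb. The SCI count was higher at Scarb1 only, equal at Lpl, Lgals3 and Gpnmb, and lower at Cd36, Msr1, Apoe and Abca1.

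The sham list was longer, so the windows were also counted over only the 36249 sham peaks of highest score. Of the 61 sham peaks, 31 were among these, against 17 in the SCI list of equal length. Over the whole sham list, the cut keeps 36249 of 88765 peaks. The same count at other genes is not given, so a sham excess particular to the 8 genes cannot be read from it. Scarb1 kept 10 of 13, Apoe 6 of 10, Abca1 4 of 10, Lgals3 4 of 9, Cd36 2 of 8, Msr1 2 of 5, Lpl 1 of 4 and Gpnmb 2 of 2. As a difference in number of peaks, the sham excess in this count was largest at Apoe and Scarb1, while Lpl had fewer sham than SCI peaks.

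**Figure D1:**
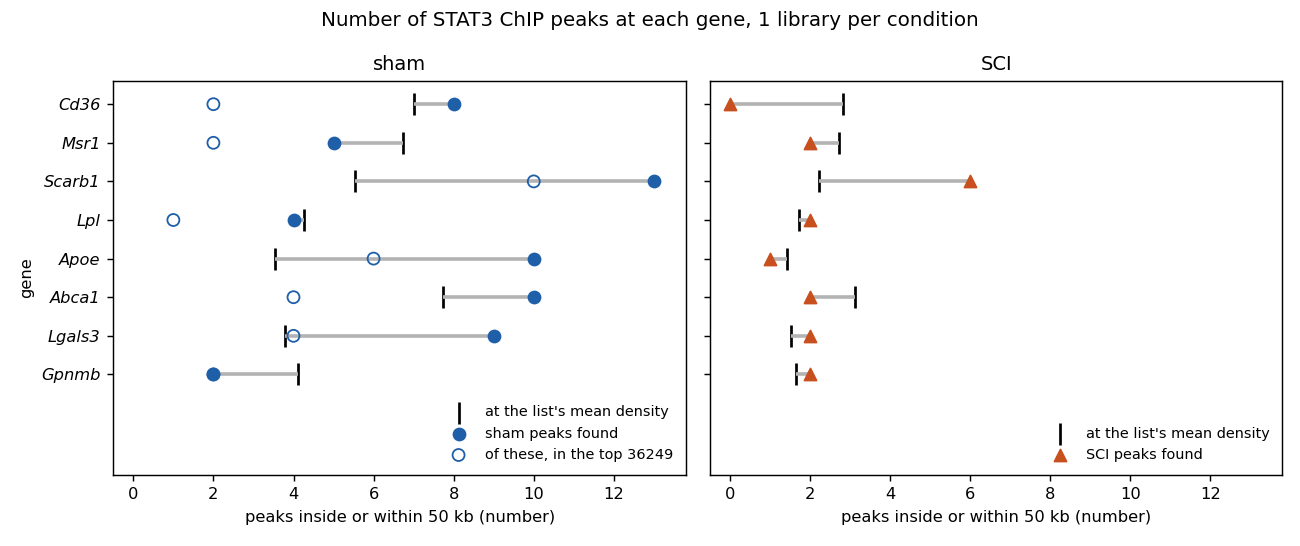
Number of peaks inside or within 50 kb (horizontal axis) at each of the 8 genes, in sham (left) and SCI (right); filled symbols give the peaks found, open circles the sham peaks among the 36249 highest, and black ticks the number that each list's mean density would give for a window of that length. Scarb1 with 13 sham and 6 SCI peaks and Apoe with 10 sham peaks lie well above their ticks, and Cd36 has 0 SCI peaks.

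Peak strength is given by the authors' score, a value of 5 or more on a scale that no source used here states, and by the rank of that score within its own list. The scores of the 61 sham peaks had a median of 9.20, against 8.07 for the whole list, and those of the 17 SCI peaks a median of 8.87, against 7.37. Peaks of the top 10% of a list were present in the windows of 3 genes in sham (Cd36, Apoe and Lgals3) and of 2 in SCI (Scarb1 and Gpnmb). The shares over all protein-coding genes were 45.0% for sham and 22.5% for SCI, so neither count stands out. In sham 6 of the 61 peaks ranked in the top 10% and 1 in the top 1%, and in SCI 2 of 17 and 0.

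Positions found in both lists, by an overlap of at least 1 bp, were present at 3 of the 8 genes, with 3 at Scarb1, 2 at Lgals3 and 1 at Lpl. Over all protein-coding genes 41.5% had a shared position inside or within 50 kb. The 6 shared positions were 35.3% of the 17 SCI peaks (95% exact Clopper-Pearson interval 14.2 to 61.7%, counting error only), with 21.6% over the whole SCI list. They were 9.84% of the sham peaks (3.70 to 20.2%), with 8.84% over the whole sham list. Both intervals include the share of their list. They treat peaks as independent, although the 6 positions lay at only 3 genes, so they do not test a difference from the list.

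**Figure D2:**
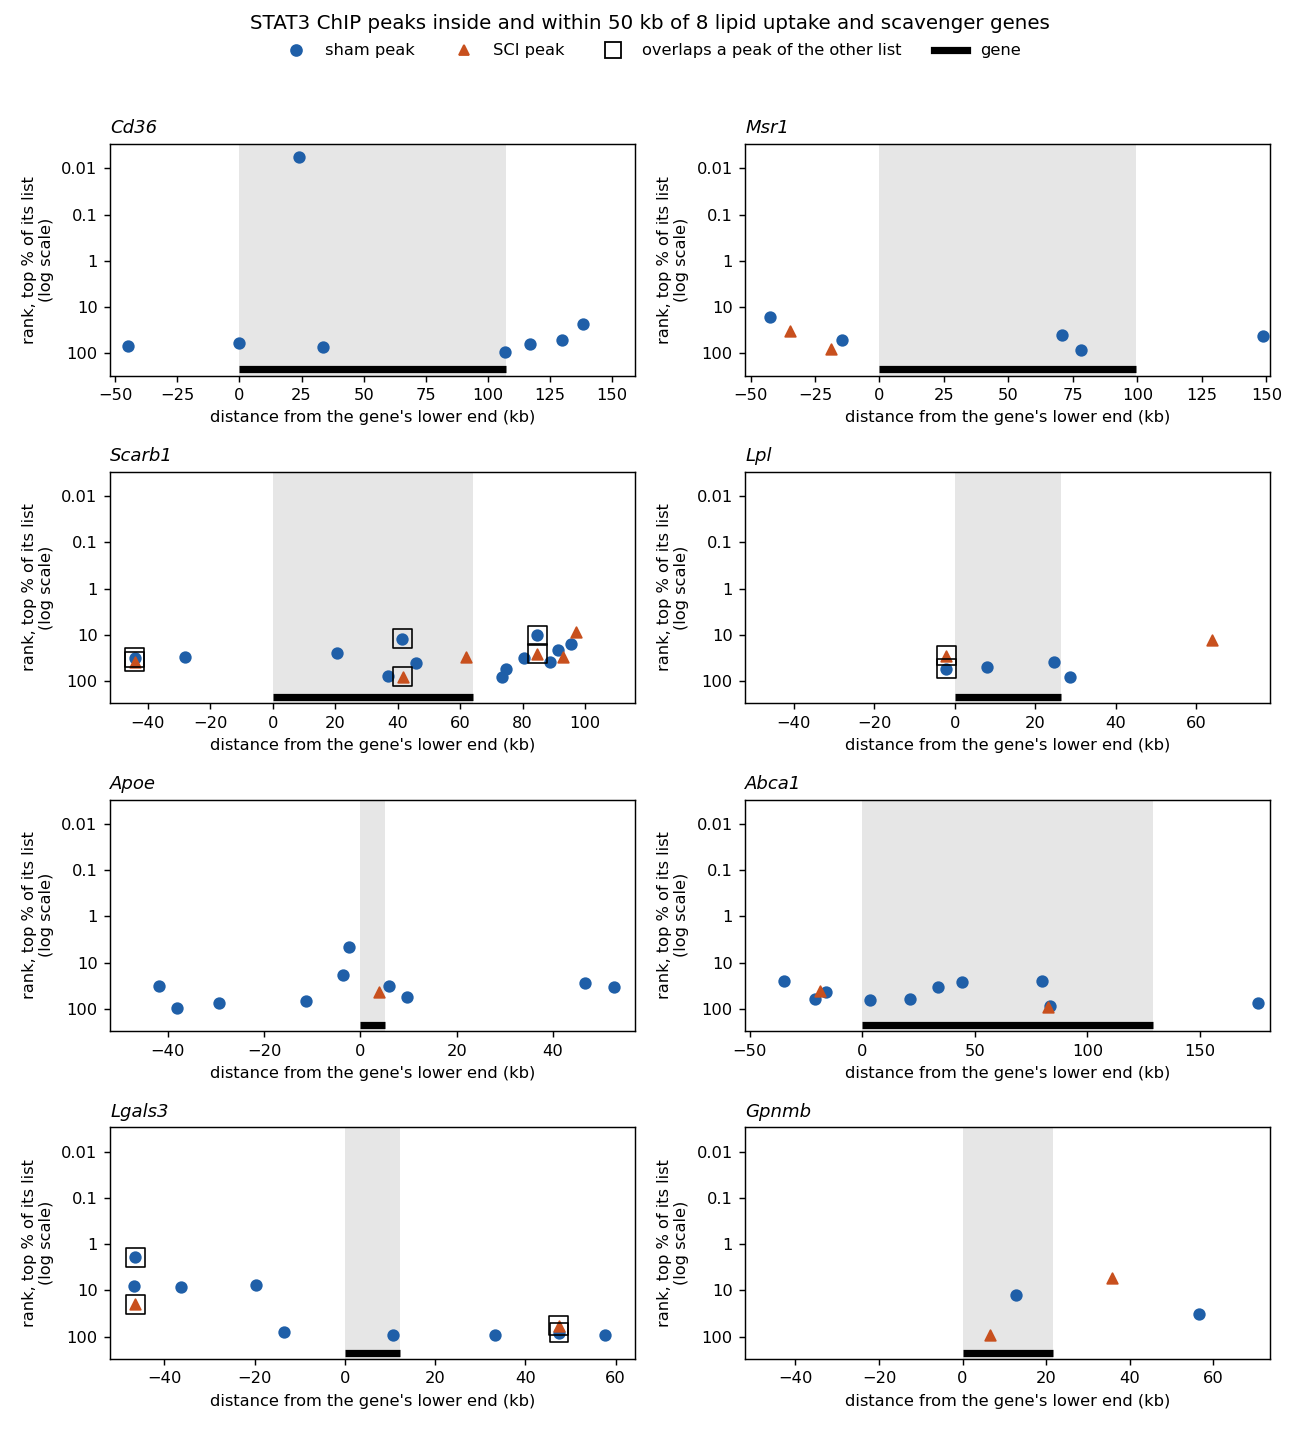
Peaks at each gene by distance from the gene's lower coordinate (horizontal axis, kb) and by rank within their list (vertical axis, top percent on a log scale, strongest at the top); blue circles are sham peaks, orange triangles SCI peaks, open squares mark peaks that overlap a peak of the other list, and the black bar with grey shading is the gene. The Cd36 sham peak in the top 0.00563% stands far above all other points, and the boxed pairs lie at Scarb1, Lpl and Lgals3.

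Cd36 encodes a class B scavenger receptor that binds long-chain fatty acids and oxidised lipoproteins. The gene (gene ID 12491, chromosome 5, 17781690 to 17888959) held a sham peak at 17805512 to 17805639 with a score of 125, rank 5 of the sham list. When peaks on all sequences of the deposited list were ranked, its rank was 35. It lay 30.3 kb downstream of the listed start and inside the gene span. RefSeq extends the span of Cd36 well upstream of that start. The other 7 sham peaks at Cd36 were ordinary in strength, with scores from 5.10 to 12.7. Of these, 1 lay inside the upstream end of the span, at 17888571 to 17888760 (score 5.10, top 92.0%), 52.8 kb upstream of the listed start. Whether a further start lies there was not checked. Another lay at the opposite end, with its centre 14 bp outside the gene at 17781582 to 17781771 (score 7.25, top 58.8%). The highest of the 7, at 17919970 to 17920159, lay 31.1 kb outside the gene in the top 23.2%. The high sham score for which Cd36 was selected thus rested on 1 position, and the other 7 peaks did not share its strength.

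The Cd36 peak had a width of 128 bp, while 99.0% of the sham peaks had 190 bp and 60 of the 61 sham peaks at the 8 genes had that width. Narrow peaks were common among the strongest, since 91 of the 100 highest sham peaks and all of the 10 highest were narrower than 190 bp, against 0.995% of the whole list. Its −log10 value, in the place of a q-value, was 4.05, the maximum of the sham list, which 31.5% of the sham peaks reached. Of the 10 highest sham peaks 4 overlapped an SCI peak, and the Cd36 peak did not. The part of this narrow form in the high score was not tested.

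In SCI no peak was found inside Cd36 or within 50 kb, and the nearest lay 60.2 kb outside the gene. The stretch between the neighbouring SCI peak centres, 17644267 and 17949130, was 305 kb long, from 137 kb below the gene to 60.2 kb above it. Gaps at least as long made up 1.99% of the 36228 gaps in the SCI list, whose median was 45.5 kb, and they covered 14.3% of the length between first and last peaks. The same stretch held 11 sham peaks, 3.61 per 100 kb, close to the density of 3.38 along the chromosomes. A window with no SCI peak is thus uncommon but not rare. Of the 2189 protein-coding genes in the length group of Cd36, 1 of 10 groups of equal size, 6.08% had none. With at least 8 sham and 0 SCI peaks, a cut set by the counts of Cd36 itself, there were 1.37% of these genes.

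**Figure D3:**
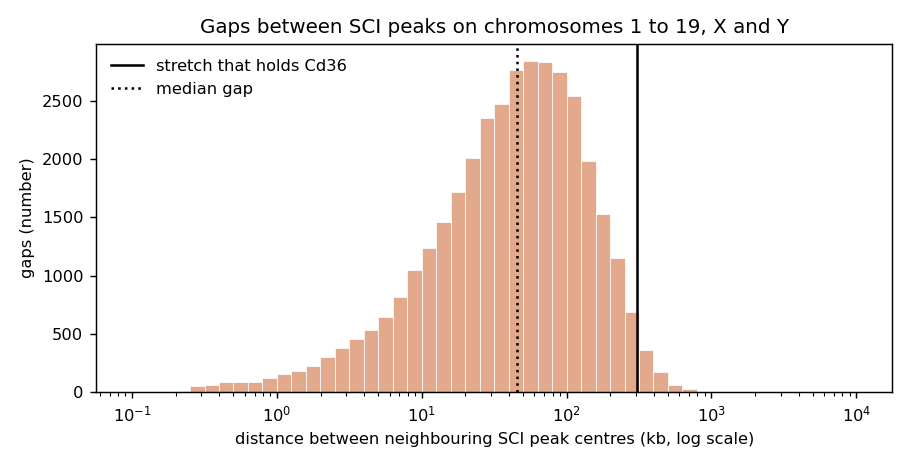
Distances between the centres of neighbouring SCI peaks (horizontal axis, kb, log scale) and the number of gaps of each length (vertical axis); the dotted line is the median of 45.5 kb and the solid line the 305 kb stretch that holds Cd36. The Cd36 stretch lies in the right tail, among the longest 1.99% of gaps.

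Genes whose pattern came closest to that of Cd36 were sought among 2842 protein-coding genes with a sham and no SCI peak in their windows, by the difference in log10 rank of their best sham peak. Each gene gives 1 value here, from 1 library. The 5 closest were Gm40035 (rank 4), Rfx7 (rank 14), Gm30500 (rank 57), Ndufb3 (rank 70) and Inpp5k (rank 71). In all 5 the peak lay outside the gene, from 3.11 kb at Ndufb3 to 45.2 kb at Inpp5k, and was 95 to 159 bp wide. The comparison uses the rank for which Cd36 was selected and left out genes with an SCI peak in the window. It therefore only describes these 5 genes and does not set Cd36 apart.

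Msr1 encodes the class A scavenger receptor, which takes up modified lipoproteins and debris. Msr1 (gene ID 20288, chromosome 8, 39543232 to 39642750) had 5 sham peaks and 2 SCI peaks in its window, with no shared position. Inside the gene lay 2 sham peaks, at 39614006 to 39614195 (score 9.44, top 39.2%) and at 39621237 to 39621426 (score 5.42, top 86.3%), and no SCI peak. The highest sham peak, at 39500632 to 39500821, scored 15.4 in the top 16.0% and lay 42.5 kb outside. The SCI peaks, at 39508639 to 39508802 (score 8.87, top 33.2%) and 39524367 to 39524530 (score 5.61, top 81.5%), lay on the same side, 34.5 and 18.8 kb outside. Sham and SCI peaks came no closer than 4.21 kb to each other here. Both counts were below those at mean list density, 6.74 for sham and 2.72 for SCI.

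Scarb1 encodes the class B receptor for high-density lipoprotein, a relative of Cd36. Scarb1 (gene ID 20778, chromosome 5, 125277087 to 125341094) had the most peaks of the 8, with 13 in sham and 6 in SCI, where mean list density would give 5.54 and 2.24. Among the 2189 protein-coding genes of its length group, 12.6% had at least as many sham peaks and 10.8% at least as many SCI peaks. Inside the gene lay 4 sham peaks with scores from 5.93 to 17.4 and 2 SCI peaks with scores of 5.71 and 9.30.

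Shared positions at Scarb1 were 1 inside and 2 outside the gene. Inside, the sham peak at 125318517 to 125318706 scored 17.4 in the top 12.2%, and the SCI peak at 125318593 to 125318756 scored 5.71 in the top 79.9%. The strongest sham peak, at 125361716 to 125361905 (score 18.8, top 10.3%), was shared with an SCI peak at 125361715 to 125361878 (score 10.1, top 25.3%) and lay 20.7 kb outside Scarb1, inside the noncoding RNA gene Gm40323. The third shared position lay 44.2 kb outside on the other side, with scores of 10.8 in sham and 8.42 in SCI. The highest SCI peak, at 125373962 to 125374125 (score 15.2, top 8.67%), was not shared, and its nearest sham peak was 1.54 kb away. A run of 7 sham and 3 SCI peaks thus lay between 9.37 and 32.9 kb from 1 end of Scarb1, of which 3 sham and 2 SCI peaks were inside Gm40323. Assignment of these to Scarb1 rests on distance alone.

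Lpl encodes lipoprotein lipase, which frees fatty acids from circulating triglyceride. Lpl (gene ID 16956, chromosome 8, 68880555 to 68906932) had 4 sham and 2 SCI peaks, near the 4.27 and 1.73 of mean density. Its length group had medians of 6 and 2, and 75.5% of those genes had at least as many sham peaks. A shared position lay 2.12 kb outside the gene, with the sham peak at 68878339 to 68878528 (score 7.80, top 53.3%) and the SCI peak at 68878345 to 68878508 (score 9.64, top 28.2%). Their centres were 7 bp apart. The 2 sham peaks inside scored 8.05 and 9.58, and a further sham peak 2.35 kb outside scored 5.64. The other SCI peak, at 68944464 to 68944627 (score 13.2, top 13.0%), lay 37.6 kb outside with no sham peak within 35.3 kb. Lpl was the gene with the weakest best sham peak of the 8, in the top 38.5%.

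Apoe encodes apolipoprotein E, the main lipid carrier secreted by glia, and lies in a cluster with Apoc1, Apoc4 and Apoc2. The gene (gene ID 11816, chromosome 7, 19696244 to 19701310) was the only member with an SCI but no sham peak inside. It spans 19700049 to 19700212, has a score of 7.90 (top 43.5%), and no other SCI peak lay in the window. In its length group 8.32% of protein-coding genes had an SCI peak inside and 18.2% a sham peak. The nearest sham peak lay 1.96 kb from it, in Tomm40 and 782 bp outside Apoe, at 19701998 to 19702187 (score 10.6, top 32.1%).

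Sham peaks around Apoe were dense, with 10 in a window where mean density would give 3.55, and 8.27% of the 2188 protein-coding genes in its length group had at least as many. The strongest, at 19693764 to 19693953 (score 25.5, rank 4045, top 4.56%), lay 2.39 kb outside Apoe and 1.20 kb outside Apoc1, in no gene. A second, at 19692527 to 19692716 (score 14.5, top 18.2%), lay inside Apoc1. Of the 10 peaks, 7 lay inside other genes, namely Clptm1, Apoc1, Tomm40 and Nectin2, and their scores over all 10 ran from 5 to 25.5. At least 10 sham and at most 1 SCI peak were found at 1.33% of the genes in the same length group, so the contrast at Apoe was about as uncommon as that at Cd36.

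Abca1 encodes the exporter that loads cholesterol and phospholipid onto apolipoproteins. Abca1 (gene ID 11303, chromosome 4, 53030789 to 53159988), the longest of the 8, had 10 sham and 2 SCI peaks, against 7.74 and 3.13 at mean density. Its length group had medians of 11 and 5, and 63.1% of those genes had at least as many sham peaks. Inside lay 6 sham peaks with scores from 5.36 to 12.2 and 1 SCI peak, at 53113261 to 53113424, with a score of 5, the lowest in the list. The sham peak nearest to it, at 53113951 to 53114140 (score 5.36, top 86.9%), had its centre 703 bp away and did not overlap. Its best peaks ranked in the top 24.6% in sham, inside the neighbour Nipsnap3a, and in the top 41.9% in SCI, inside Nipsnap3b. Neither list held a strong peak at Abca1.

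Lgals3 had the strongest sham peaks after Cd36. The gene (gene ID 16854, chromosome 14, 47373860 to 47386167) had 9 sham peaks, against 3.79 at mean density, and 2 SCI peaks, against 1.53. Its length group had medians of 5 and 2, and 16.5% of those genes had at least as many sham peaks. On the upstream side 4 of the sham peaks ranked in the top 10%, between 19.6 and 46.8 kb from the gene. The highest, at 47327346 to 47327535 (score 33.2, rank 1698, top 1.91%), overlapped the SCI peak at 47327338 to 47327501 (score 11.3, top 19.8%). Next to it, at 47327007 to 47327196, lay a separate sham peak with a score of 20.8. The other shared position, 35.1 kb outside on the downstream side, was weak, with scores of 5.76 in sham and 6.75 in SCI. The sham peak inside the gene, at 47384531 to 47384720, scored 5.18 in the top 91.2%, so the strong sham peaks lay away from the gene and the gene itself held only a weak peak.

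Gpnmb had few peaks, and none were shared. The gene (gene ID 93695, chromosome 6, 49036518 to 49058182) held the sham peak 49049148 to 49049337 (score 17.4, top 12.3%) and the SCI peak 49043120 to 49043283 (score 5.12, top 91.1%). Its second SCI peak, at 49072147 to 49072310, scored 17.8, rank 1924, and was the highest-ranked SCI peak of the 8 genes, in the top 5.31%. It lay 14.0 kb outside Gpnmb, in no gene, and its nearest sham peak was 20.9 kb away. The second sham peak, at 49092990 to 49093179 (score 10.7, top 31.8%), lay 34.9 kb outside, within both Malsu1 and Igf2bp3. With 2 sham peaks Gpnmb was below the 4.11 of mean density, and with 2 SCI peaks near the 1.66.

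Ordered by their best sham peak, the genes were Cd36 (top 0.00563%), Lgals3 (1.91%), Apoe (4.56%), Scarb1 (10.3%), Gpnmb (12.3%), Msr1 (16.0%), Abca1 (24.6%) and Lpl (38.5%). By their best SCI peak they were Gpnmb (5.31%), Scarb1 (8.67%), Lpl (13.0%), Lgals3 (19.8%), Msr1 (33.2%), Abca1 (41.9%) and Apoe (43.5%), with Cd36 without a value. The 2 orders differ, but each position rests on 1 peak of 1 library, and whether neighbours in an order differ was not tested. At the 50 kb limit, the last sham peak inside belonged to Msr1 (49.0 kb, score 9) and the first outside to Scarb1 (50.8 kb, score 5). The last SCI peak inside was that of Lgals3 (46.4 kb, score 11.3) and the first outside belonged to Scarb1 (54.3 kb, score 6.68).

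The 4 further lists with 58 genes, in which all were found, place the 8 genes among their pathways. A peak inside the gene was present at 37 of the 58 in sham and at 22 in SCI, with 51.0 and 33.4% over all protein-coding genes, and the 58 genes have a median length of 25.5 kb against 17.2 kb over all. Uptake receptors had such a peak at 14 of 19 in sham and 10 in SCI, and the other efflux genes and apolipoproteins at 8 of 12 and 4. For lipolysis and storage genes the numbers were 8 of 16 and 4, and for phagocyte activation genes 7 of 11 and 4. The lists' median lengths were 37.8, 18.7, 18.8 and 16.2 kb in the same order, and whether the lists differ was not tested. Within 50 kb, all 58 had a sham peak, 52 an SCI peak and 23 a shared position, near the shares of 95.6, 84.2 and 41.5% over all protein-coding genes. Apoc1, Apoc2 and Apoc4 of the efflux list share peaks with the Apoe window.

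**Figure D4:**
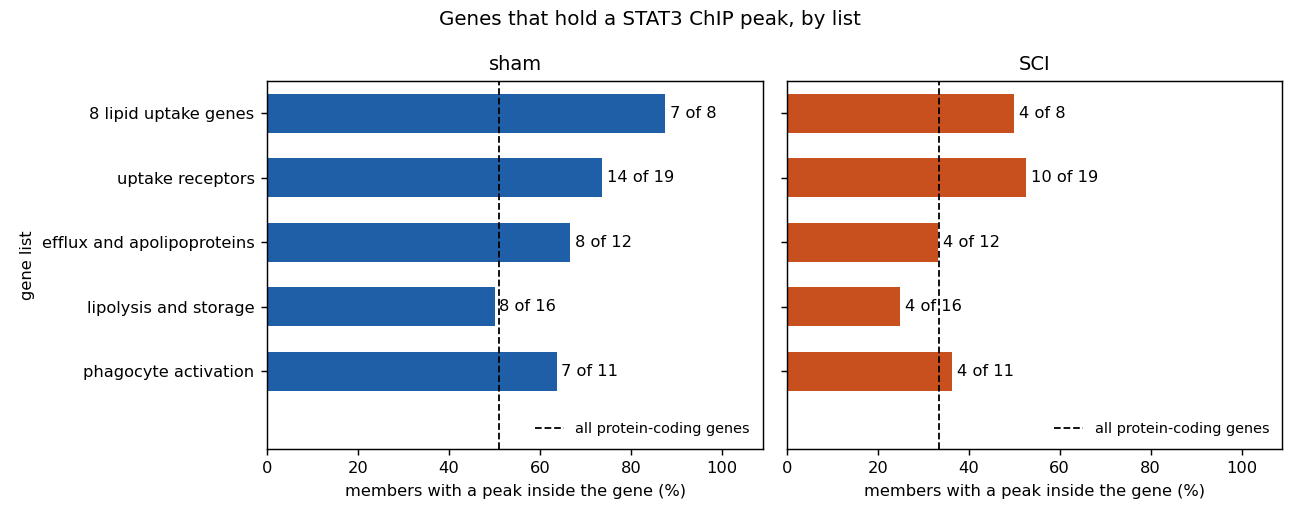
Percent of genes with a peak inside the gene (horizontal axis) for the 8 lipid uptake genes and 4 further lists (vertical axis), in sham (left) and SCI (right); numbers beside the bars are members with a peak of all members, and the dashed line is the share over all protein-coding genes. The 8 genes and the uptake receptors reach the highest shares in sham, with 7 of 8 and 14 of 19, and lipolysis and storage genes lie lowest in both lists.

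Inside or within 5 kb of a gene, 2 members of these lists had an SCI but no sham peak. This was the case for 6.51% of all protein-coding genes. The members were Vldlr, the very-low-density lipoprotein receptor (chromosome 19, 27233011 to 27233174, score 9.95, top 25.8%), and Dgat1, an enzyme of triglyceride synthesis (chromosome 15, 76510947 to 76511110, score 8.17, top 39.5%). A sham but no SCI peak was present at 24 of the 58, and at 29.3% of all protein-coding genes. Spp1, encoding osteopontin, was the only member with a peak in the top 1% of a list inside or within 5 kb, where 2.28% of all protein-coding genes had such a sham peak and 0.909% such an SCI peak. That sham peak (chromosome 5, 104434871 to 104435060, score 44.8, top 0.582%) lay 146 bp outside Spp1 and ranked 517, against the rank of 5 at Cd36.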

How the data were processed

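The deposited files are 2 peak lists, 1 for each STAT3 library. Bowtie2 and the build mm10 are named, per the submitters' processing notes. Which peak caller, control and threshold were used is not stated there. The authors' files hold a score for each peak and, where the layout places a q-value, a −log10 value as deposited. Depth is unknown. Each list was matched to its sample by title.

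Peaks of chromosomes 1 to 19, X and Y were ranked by score within each list. Genes came from RefSeq GRCm38.p6, whose table has no strand or exons. Strand and starts came from the RefSeq promoter table. With 1 library per condition no test was run. The main counts of members are given with the share of all protein-coding genes, or of genes of like length, meeting the same rule, and peak density is per span between first and last peaks. Motifs were planned for promoters only, and peak sequences were not analysed here. All 8 genes were named. From the 4 further lists were named members with a peak inside or within 5 kb in the top 1%, or with an SCI and no sham peak, at most 5 a list. Genes like Cd36 were planned over both lists and compared over sham alone, since Cd36 has no SCI peak. Members, lists and rules were chosen with earlier results of these data known. Counting was tested on simulated data. Software was pandas 2.3.3 and numpy 2.4.6 under Python 3.11.15, scipy 1.17.1 for intervals and matplotlib 3.10.9 for figures. Alternatives are listed in the closing section.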

Additional observations from a re-analysis of the deposited data

How the results depend on the processing

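The counts depend on the window by construction. Instead of 61 sham, 17 SCI and 6 shared peaks, there were 19, 5 and 1 inside the genes, 26, 6 and 2 with a window of 5 kb, and 40, 10 and 3 with 25 kb. A window of 100 kb gave 91, 32 and 10. Keeping only peaks that reach their list's median score left 33 sham, 12 SCI and 3 shared peaks, and an SCI peak inside 2 genes in place of 4. Cutting the sham list to as many peaks as SCI has left 31 sham peaks and 4 shared. Leaving out peaks whose score plus 1 is 2 times a whole number's square root gave 51, 14 and 5. Counting any base of a peak in the window changed none of the 3 counts. Requiring an overlap of 50% of the narrower peak or centres within 500 bp gave 6 shared peaks, and centres within 1000 bp gave 7.

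The Cd36 sham peak ranked 35 in place of 5 with peaks of all sequences ranked, and the other 14 best ranks moved by less than 1.5 times. Depth is unknown, so an absent peak is not evidence of absent binding.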

Other observations

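Some pathway genes outside the 8 had peaks of high rank, and these were picked after their values were seen. Mrc1, the mannose receptor gene of tissue macrophages, had a sham peak inside the gene (score 33.1, top 1.93%). Its only SCI peak inside or within 5 kb scored 5.20, in the top 89.5%. Soat1, which esterifies cholesterol for storage, had a sham peak 4.39 kb outside the gene (score 29.3, top 2.98%). It had no SCI peak within 5 kb. In SCI the highest-ranked peaks inside or within 5 kb of the 58 genes lay inside Lrp1, a large endocytic receptor (score 17.5, top 5.66%), and inside Mitf, a transcription factor of lysosomal genes (score 17.3, top 5.82%). Nr1h3, which encodes the sterol sensor LXR alpha, held a shared position with scores of 23.1 in sham (top 6.09%) and 8.36 in SCI (top 38.7%). Megf10, an engulfment receptor of astrocytes, held a shared position with scores of 23.4 in sham (top 5.88%) and 7.82 in SCI (top 44.8%). Scores have no stated scale, so those of the 2 lists are not compared. Shared positions at Axl (top 34.5% in sham, 50.8% in SCI) and Lrp8 (top 11.6 and 52.1%) also had the higher place within the sham list. Those at Stab2 (top 16.0% in sham, 15.2% in SCI) and Ctsd (top 24.1 and 13.0%) had the higher place within the SCI list. The lists differ in length, so these ranks show no change between conditions. Only genes whose highest peak inside or within 5 kb was the shared one in both lists are covered here.

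Promoter windows that lay over a peak held TTCNNNGAA in 9.91% of 555 cases for sham and in 11.2% of 224 cases for SCI, with 8.30% over all windows. The stricter TTCCNGGAA was present in 2.52 and 2.23% of them, with 1.15% over all. These shares describe windows, not peaks, since a peak can reach beyond its window.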
